A study of Mus musculus with 72 samples.

Results

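The IRF and STAT transcription factor genes Irf1, Irf2, Irf3, Irf5, Irf7, Irf8, Irf9, Stat2 and Stat3 were followed after knockdown of a nuclear corepressor in RAW264.7, a macrophage-like line of mouse origin. They were taken by gene symbol as 9 of the 25124 genes in the RNA table, and by the gene name given to each peak as 48 of the 51984 peaks in the table of chromatin accessibility. Lentivirus carried a short hairpin RNA against NCOR (shNCOR), against SMRT (shSMRT) or against GFP (shGFP, the control hairpin). All 3 groups came from the same line on a BALB/c background, and no title of these libraries names a stimulus. RNA-seq and ATAC-seq, which reads open chromatin with a transposase, gave 9 libraries each, 3 per hairpin. Whether libraries of 1 hairpin stem from separate infections or cultures is not stated, so the p-values may measure only technical spread, and 1 hairpin per gene is named. The ATAC protocol speaks of wild-type cells although each title gives a hairpin, and the groups here follow the titles.

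IRF proteins bind interferon-stimulated response elements through a winged-helix domain, and STAT proteins are latent cytoplasmic factors that JAK kinases phosphorylate at cytokine receptors. Interferon alpha and beta assemble STAT2 and IRF9 with a further STAT into the complex ISGF3, which turns on antiviral genes and Irf7 itself. IRF3, IRF5 and IRF7 carry signals from pattern-recognition receptors to interferon and cytokine genes, IRF8 sets up the monocyte and macrophage lineage, IRF1 and IRF2 act on shared sites as activator and antagonist, and STAT3 carries interleukin-6 and interleukin-10 signals. NCOR and SMRT are large corepressors that carry HDAC3, a histone deacetylase, to the factors they bind.

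In shNCOR cells 7 of the 9 genes fell and 0 rose against shGFP, led by Irf7, which kept 10.8% of its shGFP level, and Irf9, which kept 38.9%. Among all 10789 genes tested, 37.6% were called in either direction, 20% lower and 17.6% higher. In shSMRT cells 4 rose (Irf5, Irf2, Stat2 and Irf1) and 3 fell (Irf7, Irf3 and Irf9), where 55.8% of all genes were called, 24.4% higher and 31.4% lower. Between the knockdowns 8 were higher in shSMRT and 1 (Irf3) was lower, with 51.8% of all genes called, 22.8% higher and 29% lower. Calls with an absolute log2 fold change of at least 0.5 numbered 3 of the 9 in shNCOR, 1 in shSMRT and 3 between the knockdowns. Such calls made up 5.86%, 8.48% and 8.51% of all genes. Libraries of the compared groups did not overlap for 7, 6 and 8 of the 9, and for 48.1%, 63.1% and 58.9% of all genes. The median log2 fold change of the 9 genes was -0.19 in shNCOR, 0.07 in shSMRT and 0.47 for shSMRT minus shNCOR, while that of all tested genes was 0.00, -0.02 and -0.02. A gene was called where its p, adjusted by Benjamini-Hochberg over all genes, was under 0.05 in 1 limma fit of log2(RPKM + 1) over all genes with at least 1 RPKM (reads per kilobase of exon per M mapped reads) in at least 3 of 9 libraries, and all 9 genes passed that filter. Fold changes below are on this log2 scale with their standard errors, and understate the change of weakly expressed genes. The comparisons with shGFP share its 3 libraries. In bulk RNA, fewer cells expressing a gene and less RNA per cell cannot be told apart.

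The labels were checked first. Ncor1, which encodes NCOR, had 3.61, 4.20 and 4.30 RPKM in shNCOR libraries, 18.9, 20.2 and 20.2 in shSMRT and 18.4, 20.2 and 18.7 in shGFP, and was called in shNCOR only (limma adjusted p = 8.89e-10, and 0.494 in shSMRT). The gene that the SMRT hairpin targets is not reported here. RNA libraries held 39.1 to 49.1 M reads and gave each of the 9 genes between 122 and 10154 reads, while ATAC libraries held 6.06 to 10.84 M. Of 10 macrophage markers 8 passed the filter, with Cd163 at 0 and Mertk at no more than 0.041 RPKM. Their summed level was 8200 to 8485 RPKM in shNCOR, 9997 to 10538 in shSMRT and 7062 to 7215 in shGFP. Most of it was Lyz2, which averaged 6548, 8104 and 5195 RPKM, so the sum mainly follows that gene. Cd14 and Csf1r averaged 599 and 321 RPKM in shNCOR, below their 707 and 388 in shGFP. Of the tested markers 3 rose and 3 fell in shNCOR, and 7 rose and 1 fell in shSMRT. The shares of all genes called were 37.6% and 55.8%. The part of this in the results was not tested. The 12 markers of lymphocytes and plasmacytoid dendritic cells summed to 0 to 0.008 RPKM in shNCOR, 0.246 to 0.36 in shSMRT and 0.073 to 0.198 in shGFP, with Cd3d, Cd8a and Ms4a1 at 0 in every library. The 10 neutrophil and mast cell markers summed to at most 0.245, 0.54 and 0.517 RPKM, with Ly6g and Mpo at 0, and the 11 fibroblast and epithelial markers to at most 1.18, 1.53 and 1.26 RPKM, with Epcam and Dcn at 0. Of these 33 genes 32 were below the filter and 0 were called.

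**Figure D1:**
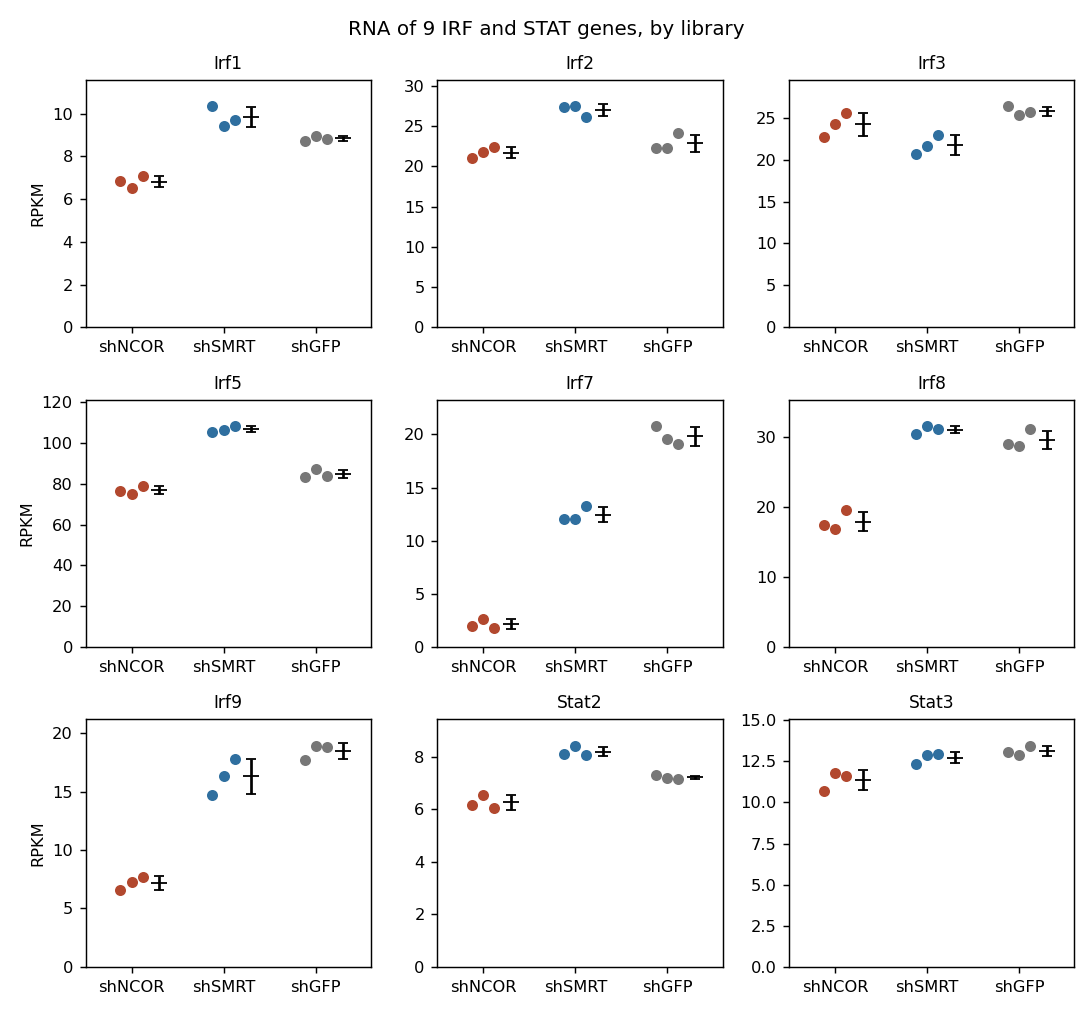
RPKM (y axis, from 0) of each IRF and STAT gene in the 3 libraries of each hairpin, with the mean and SD beside the points. Irf7, Irf9 and Irf8 lie lowest in shNCOR with no overlap with shSMRT or shGFP, and Irf5 lies highest in shSMRT.

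Promoters are shown for the 3 genes that fell most in shNCOR and for 2 genes whose promoters hold an interferon-type motif. The windows are from RefSeq (GRCm38.p6), 300 bases each that run from upstream of an annotated start to just past it, and were found for all 9 genes, in 12 windows. Capitals mark a GAS-like motif, TTCNNNGAA, the palindromic type of site that STAT dimers bind, or an ISRE-like motif, GAAANNGAAA, the type of site bound by ISGF3 and IRF proteins, searched on both strands. Of 32851 promoters of the same length, 8.30% held the GAS-like and 3.44% the ISRE-like motif, with 3 and 2 of the 12 windows here. A match is a description of letters and not a bound site.
Irf7, chr7:141266375-141266674, minus strand, no match: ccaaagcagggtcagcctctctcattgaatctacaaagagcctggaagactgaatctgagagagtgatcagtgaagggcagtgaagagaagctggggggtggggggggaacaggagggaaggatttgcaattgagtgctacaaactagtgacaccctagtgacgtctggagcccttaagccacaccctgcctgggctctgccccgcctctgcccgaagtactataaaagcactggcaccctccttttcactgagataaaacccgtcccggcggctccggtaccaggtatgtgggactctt
Irf9, chr14:55604329-55604628, plus strand, no match: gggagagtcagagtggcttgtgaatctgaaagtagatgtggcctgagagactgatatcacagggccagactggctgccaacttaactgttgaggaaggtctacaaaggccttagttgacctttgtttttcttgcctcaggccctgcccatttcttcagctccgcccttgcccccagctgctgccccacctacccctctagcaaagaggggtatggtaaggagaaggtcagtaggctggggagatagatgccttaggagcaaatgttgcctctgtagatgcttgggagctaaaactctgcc
Irf8, chr8:120736108-120736407, plus strand, 2 GAS-like motifs: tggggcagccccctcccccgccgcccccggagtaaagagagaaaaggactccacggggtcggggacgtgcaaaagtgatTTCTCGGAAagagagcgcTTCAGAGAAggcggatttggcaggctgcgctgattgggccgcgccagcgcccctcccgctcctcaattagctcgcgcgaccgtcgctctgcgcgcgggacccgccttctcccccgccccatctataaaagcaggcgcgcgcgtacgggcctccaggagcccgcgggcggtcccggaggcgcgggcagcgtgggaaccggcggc
Irf1, chr11:53769764-53770063, plus strand, GAS-like: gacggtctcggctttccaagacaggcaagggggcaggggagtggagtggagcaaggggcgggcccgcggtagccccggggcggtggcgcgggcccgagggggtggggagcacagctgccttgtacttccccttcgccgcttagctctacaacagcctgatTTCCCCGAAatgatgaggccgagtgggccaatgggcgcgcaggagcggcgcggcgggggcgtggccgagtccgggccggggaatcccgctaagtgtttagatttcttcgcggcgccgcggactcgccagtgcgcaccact
Stat2, chr10:128270248-128270547, plus strand, ISRE-like on the minus strand: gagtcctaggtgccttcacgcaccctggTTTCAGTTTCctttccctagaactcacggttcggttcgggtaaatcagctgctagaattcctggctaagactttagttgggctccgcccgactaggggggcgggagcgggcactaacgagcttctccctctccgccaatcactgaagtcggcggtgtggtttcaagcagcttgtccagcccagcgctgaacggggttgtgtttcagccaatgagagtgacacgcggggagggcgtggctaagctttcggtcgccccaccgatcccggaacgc

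The GAS-like letters TTCCCCGAA of Irf1 lie from -90 to -82 relative to its start, and those of Irf8, TTCTCGGAA and TTCAGAGAA, from -171 to -163 and from -153 to -145. The ISRE-like letters of Stat2 lie from -222 to -213. The window of Irf2 held both kinds, GAAAATGAAA from -241 to -232 and TTCCGAGAA from -224 to -216. The windows of Irf3, Irf5, Irf7, Irf9 and Stat3 held neither motif.

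Irf7, on chr7:141263183-141266424 (mm10, minus strand), encodes the factor that amplifies the type I interferon response. It had 2.02, 2.65 and 1.77 RPKM in shNCOR, 12.0, 12.1 and 13.3 in shSMRT and 20.8, 19.6 and 19.1 in shGFP. The 3 groups were separate, with every shNCOR library far below every shSMRT library and these below every shGFP library. The log2 fold change was -2.74 ± 0.09 in shNCOR (95% interval -2.93 to -2.54, limma adjusted p = 1.62e-09), while shSMRT gave -0.63 ± 0.09 (adjusted p = 0.000107). Only 10 of the tested genes had a lower log2 fold change in shNCOR, so Irf7 ranked 11 from the lowest, while in shSMRT it ranked 161. Its level was 5.81 times as high in shSMRT as in shNCOR, a difference of 2.11 ± 0.09 (adjusted p = 1.09e-08). Across 18 alternative settings the shNCOR value lay between -3.22 (limma voom on reads recovered from the values) and -1.80 (a pseudocount of 5), and the call held in each.

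Irf9, on chr14:55604579-55610030, encodes the DNA-binding subunit of ISGF3. Its RNA stood at 6.58, 7.27 and 7.68 RPKM in shNCOR, 14.7, 16.4 and 17.8 in shSMRT and 17.7, 18.9 and 18.8 in shGFP. All shNCOR libraries lay below the others, while the highest shSMRT library passed the lowest shGFP one. The log2 fold change was -1.25 ± 0.07 in shNCOR (limma adjusted p = 1.12e-07), while shSMRT gave -0.17 ± 0.07 (adjusted p = 0.0482). The shSMRT call ended in 9 of 18 alternatives, among them leaving out shGFP library 1, 2 or 3, shNCOR library 2 or shSMRT library 1 or 2 (adjusted p 0.0502 to 0.193). Between the knockdowns Irf9 was 1.08 ± 0.07 higher in shSMRT (adjusted p = 2.80e-07).

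Stat2, on chr10:128270498-128292853, encodes the other subunit of ISGF3 followed here. It had 6.18, 6.56 and 6.03 RPKM in shNCOR, 8.11, 8.41 and 8.06 in shSMRT and 7.28, 7.18 and 7.15 in shGFP. The groups did not overlap, with shNCOR lowest and shSMRT highest. Stat2 fell by 0.18 in shNCOR (log2 fold change -0.18 ± 0.05, limma adjusted p = 0.00932), whereas the shSMRT libraries gained 0.16 ± 0.05 (adjusted p = 0.00965). Its span overlaps Apof, which had 0.409 to 0.555 RPKM and lies on the same strand, so strand would not separate their reads. In shNCOR the values of these 2 ISGF3 subunits were -1.25 for Irf9 and -0.18 for Stat2.

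Irf8, on chr8:120736358-120756692, the gene of a macrophage lineage factor, had 17.4, 16.9 and 19.5 RPKM in shNCOR, 30.4, 31.5 and 31.1 in shSMRT and 28.9, 28.7 and 31.1 in shGFP. The shNCOR libraries lay apart below the rest, and shSMRT and shGFP overlapped. The log2 fold change was -0.69 ± 0.05 in shNCOR (limma adjusted p = 1.37e-06). It was 0.07 ± 0.05 in shSMRT (95% interval -0.04 to 0.18, adjusted p = 0.280), and shSMRT minus shNCOR was 0.76 ± 0.05 (adjusted p = 4.44e-07). Irf5, on chr6:29526625-29537320, an activator of inflammatory cytokine genes in macrophages, was the most abundant of the 9, with 76.6, 75.1 and 78.7 RPKM in shNCOR, 105, 106 and 108 in shSMRT and 83.4, 87.0 and 83.5 in shGFP. It moved in opposite directions in the knockdowns, with no overlap between any of the groups. Irf5 fell by 0.14 in shNCOR (-0.14 ± 0.03, adjusted p = 0.00267) and rose by 0.33 ± 0.03 in shSMRT (adjusted p = 2.76e-06).

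Irf1, on chr11:53770014-53777324, the gene of an activator induced by interferon gamma, had 6.86, 6.53 and 7.08 RPKM in shNCOR, 10.4, 9.44 and 9.72 in shSMRT and 8.74, 8.95 and 8.83 in shGFP. It was lowest in shNCOR and highest in shSMRT in every library. The log2 fold change was -0.33 ± 0.05 in shNCOR (limma adjusted p = 0.000229), with 0.14 ± 0.05 for shSMRT (adjusted p = 0.0271). The shSMRT call was lost after quantile normalization (adjusted p = 0.0755) or by dropping shGFP library 1 or 3 or shSMRT library 1 or 3 (adjusted p 0.0512 to 0.110). Irf2, on chr8:46739745-46847458, whose product antagonises IRF1 at shared sites, had 21.0, 21.7 and 22.4 RPKM in shNCOR, 27.4, 27.5 and 26.2 in shSMRT and 22.2, 22.3 and 24.1 in shGFP. Only shSMRT stood apart, by 0.23 ± 0.04 (adjusted p = 0.000565), and shNCOR minus shGFP was -0.07 ± 0.04 (95% interval -0.16 to 0.02, adjusted p = 0.178).

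Irf3, on chr7:44997648-45002848, the constitutive factor activated by nucleic acid sensing, had 22.8, 24.3 and 25.5 RPKM in shNCOR, 20.7, 21.6 and 23.0 in shSMRT and 26.4, 25.4 and 25.6 in shGFP. It was the 1 gene of the 9 that was lower in shSMRT than in both other groups, although shNCOR overlapped each of them. The log2 fold change was -0.24 ± 0.05 in shSMRT (limma adjusted p = 0.00149) and -0.09 ± 0.05 in shNCOR (adjusted p = 0.167). Its shSMRT minus shNCOR value, -0.15 ± 0.05 (adjusted p = 0.0236), lost its call without shNCOR library 2 or 3 or shSMRT library 1 or 2 (adjusted p 0.0576 to 0.0949). Stat3, on chr11:100886806-100939540 (minus strand), the effector of interleukin-10 in macrophages, had 10.7, 11.8 and 11.6 RPKM in shNCOR, 12.3, 12.9 and 12.9 in shSMRT and 13.0, 12.9 and 13.4 in shGFP. The shNCOR libraries lay below all others, by -0.19 ± 0.04 (adjusted p = 0.00571), and shSMRT minus shGFP was -0.04 ± 0.04 (95% interval -0.14 to 0.06, adjusted p = 0.469). Against shNCOR it was 0.15 ± 0.04 higher in shSMRT (adjusted p = 0.0142), a call that ended without shNCOR library 1 (adjusted p = 0.0513).

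**Figure D2:**
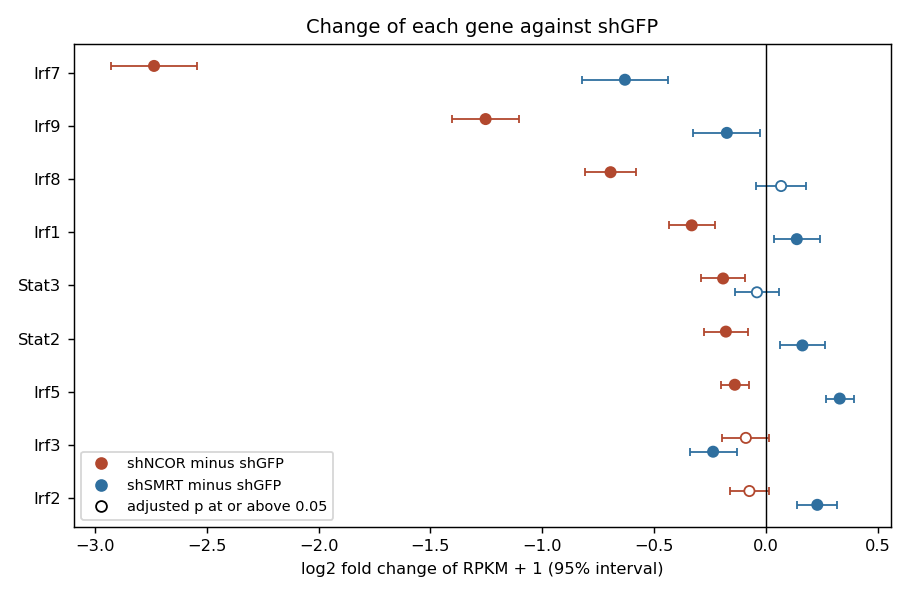
Log2 fold change of RPKM + 1 against shGFP (x axis) with its 95% interval for each gene (y axis, from the lowest to the highest value in shNCOR), for shNCOR and shSMRT. Open points missed an adjusted p of 0.05. Irf7 and Irf9 stand furthest from 0, at -2.74 and -1.25 in shNCOR, and 5 genes have a positive value in shSMRT.

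RPKM is set per length, so levels can be ordered within a group. In shGFP the order from highest to lowest was Irf5, Irf8, Irf3, Irf2, Irf7, Irf9, Stat3, Irf1 and Stat2, and none of the 8 neighbouring pairs overlapped in their libraries. In shNCOR it was Irf5, Irf3, Irf2, Irf8, Stat3, Irf9, Irf1, Stat2 and Irf7, where Irf9 and Irf1 overlapped and so did Irf1 and Stat2. In shSMRT the order was Irf5, Irf8, Irf2, Irf3, Irf9, Stat3, Irf7, Irf1 and Stat2, with Stat3 and Irf7 overlapping. Irf7 was the last of the 9 in shNCOR, where 10.9% of the tested genes lay below it, and the fifth in shGFP, where 61.7% did.

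For Irf7, Irf8 and Irf9, which passed 0.5 against shGFP, the genes most like them over the 9 RNA libraries were found from the root mean square difference of centred log2(RPKM + 1) profiles. For Irf7, whose own profile has a root mean square of 1.17, they were Rnase4 (0.11), Usp18 (0.15) and H2-T24 (0.16). Irf8, at 0.35, was nearest to Morf4l1 (0.05), Ddx19a (0.06) and Nrp1 (0.06). For Irf9, at 0.56, Acod1 (0.08), Slc15a3 (0.09) and Cybb (0.10) came closest. These are likenesses over 9 points in 3 groups and were not tested. Genes with Rik, Gm, LOC, Mir, Snor, BC or accession-like names were left out of the search, so closer ones may exist.

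Genes around the factors were followed as lists by role, whose calls come from the same limma fit. Each list is to be read beside all tested genes. In shNCOR 37.6% of these were called, 17.6% higher and 20% lower. In shSMRT 55.8% were called, 24.4% higher and 31.4% lower. A gene that passed the filter only through the group where it is high was more apt to be called. Of 13 interferon and cytokine ligands 10 were at 0 in every library and only Il27 passed the filter, at 2.84 ± 0.42 RPKM in shNCOR, 3.02 ± 0.20 in shSMRT and 2.81 ± 0.27 in shGFP (SD, n = 3 each), with no call. Of 12 tested receptors and JAK kinases 4 rose and 2 fell in shNCOR, and 9 rose and 1 fell in shSMRT, with median log2 fold changes of 0.01 and 0.24. Ifnar1, a chain of the type I interferon receptor, averaged 13.9 ± 0.30 RPKM in shNCOR, 14.0 ± 0.10 in shSMRT and 10.5 ± 0.11 in shGFP, up by 0.37 and 0.39. Ifnar2, its other chain, had log2 fold changes of 0.00 in shNCOR and -0.13 in shSMRT, the second called. The interferon gamma receptor chain Ifngr1 fell by 0.22 in shNCOR and rose by 0.10 in shSMRT, and Ifngr2 rose by 0.38 in shSMRT. The interleukin-6 receptor gene Il6ra fell by 0.36 in shNCOR and rose by 0.20 in shSMRT, and Il10rb rose by 0.37 and 0.23.

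Of 23 sensors, adaptors and kinases upstream of IRF3, IRF5 and IRF7, 4 rose and 11 fell in shNCOR and 8 rose and 6 fell in shSMRT, with medians of -0.09 and 0.05. The shares of all genes called were 37.6% and 55.8%. The RNA sensor gene Ddx58 averaged 1.53 ± 0.18 RPKM in shNCOR, 5.96 ± 0.25 in shSMRT and 8.57 ± 0.50 in shGFP, and it fell by 1.92 in shNCOR and 0.46 in shSMRT. Dhx58, a related sensor, fell by 1.70 in shNCOR and 0.64 in shSMRT. Both are themselves interferon-induced. The lipopolysaccharide receptor gene Tlr4 went the other way, at 16.9 ± 0.60 RPKM in shNCOR, 12.5 ± 0.34 in shSMRT and 9.10 ± 0.03 in shGFP, up by 0.83 and 0.42. Tlr8, a sensor of RNA, rose by 0.50 and 0.82, to 0.883 ± 0.11 RPKM in shNCOR and 1.34 ± 0.17 in shSMRT, against 0.329 ± 0.079 in shGFP. Tlr8 passed the filter only with its shSMRT libraries. The kinase gene Irak2 fell by 0.32 in shNCOR and rose by 0.71 in shSMRT, and the ubiquitin ligase gene Traf6 fell by 0.47 in shSMRT.

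Of 14 JAK-STAT inhibitors 1 rose and 4 fell in shNCOR, and 3 rose and 4 fell in shSMRT, with medians of -0.03 and -0.04. These counts are near the shares of all genes called, 37.6% and 55.8%. Usp18, which blocks the type I interferon receptor, had 2.48, 2.51 and 2.31 RPKM in shNCOR, 12.4, 12.6 and 14.6 in shSMRT and 17.5, 17.7 and 19.0 in shGFP. It fell by 2.47 in shNCOR and 0.43 in shSMRT. Socs3, the feedback inhibitor of STAT3 signalling, fell by 0.88 in shNCOR and 0.33 in shSMRT. The phosphatase gene Ptpn1 rose by 0.36 in shSMRT, where Pias4 rose by 0.28, and Pias3 rose by 0.20 in shNCOR. Usp18 is also counted among the ISGF3 targets, and Socs3 and Ptpn1 among the STAT3 targets.

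Of 31 listed ISGF3 target genes 27 were tested. In shNCOR 0 rose and 27 fell, with a median of -1.38, where 20% of all genes fell. In shSMRT 1 rose and 21 fell, with a median of -0.43, where 31.4% of all genes fell. Some of the 27 passed the filter only through shGFP, where they are highest, so the filter favoured their fall. The list was also chosen with earlier results of these data known, so its counts describe it and test nothing. Between the knockdowns all 27 were higher in shSMRT, where 22.8% of all genes were. Ifi27l2a, an interferon-induced gene, had 23.7, 21.4 and 24.6 RPKM in shNCOR, 58.0, 54.1 and 63.4 in shSMRT and 172, 154 and 167 in shGFP. It fell by 2.77 in shNCOR and 1.48 in shSMRT, with the groups far apart. Rtp4 and Ifi44 had the lowest values of the list in shNCOR, -3.70 and -3.30. The chemokine gene Cxcl10 had 0.838, 0.992 and 1.30 RPKM in shNCOR, 7.67, 8.69 and 7.42 in shSMRT and 5.41, 5.98 and 4.52 in shGFP. It fell by 1.62 in shNCOR and was the single list member to rise in shSMRT, by 0.51 ± 0.10 (limma adjusted p = 0.00158).

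Targets of IRF1 and IRF8 numbered 14 tested, of which 0 rose and 11 fell in shNCOR (median -0.38), and 2 rose and 5 fell in shSMRT (median -0.03). The interferon-inducible GTPase genes Igtp and Irgm1 fell by 1.49 and 1.30 in shNCOR and by 0.55 and 0.57 in shSMRT. Casp1, an inflammatory caspase gene, and Tap2, a peptide transporter gene, rose by 0.37 and 0.24 in shSMRT and had -0.09 and 0.03 in shNCOR. Of 16 STAT3 targets 5 rose and 5 fell in shNCOR (median 0.01), and 11 rose and 4 fell in shSMRT (median 0.30). Beside both lists, 17.6% of all genes rose and 20% fell in shNCOR, and 24.4% rose and 31.4% fell in shSMRT. Il1rn, the interleukin-1 receptor antagonist, averaged 26.9 ± 0.53 RPKM in shNCOR, 52.5 ± 1.06 in shSMRT and 22.9 ± 0.79 in shGFP, up by 0.22 and 1.16. Junb rose by 0.40 and 0.81 and Bcl3 by 0.40 and 0.43, whereas Ccnd1, a cyclin gene, fell by 1.20 and 0.65 and Nfil3 fell by 0.60 in shSMRT. Stat3 itself had -0.19 in shNCOR and -0.04 in shSMRT.

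**Figure D3:**
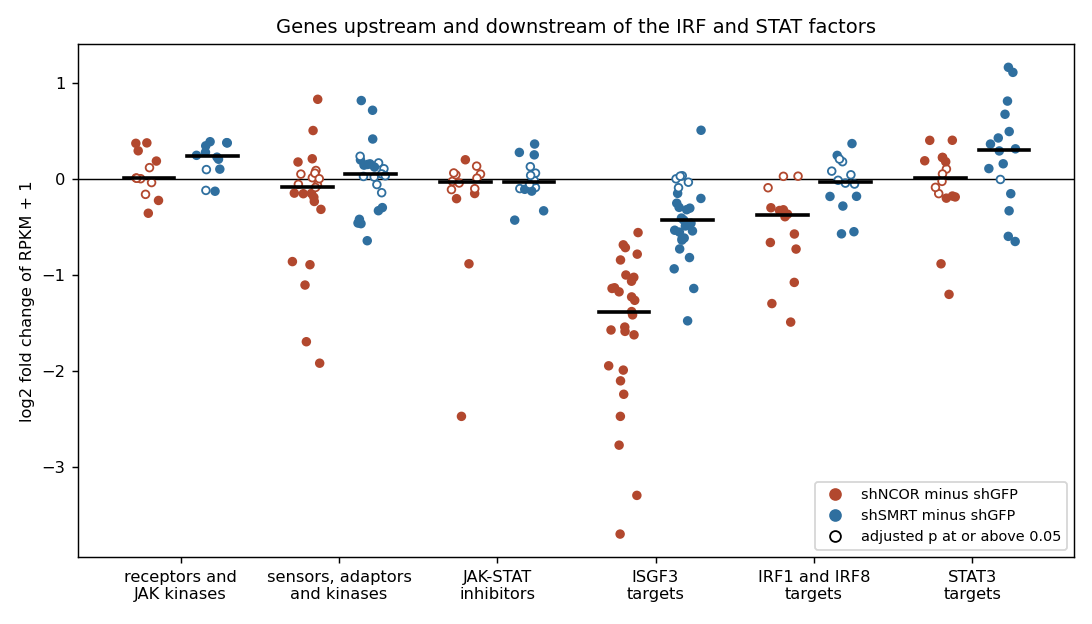
Log2 fold change of RPKM + 1 against shGFP (y axis) for each tested gene of 6 lists (x axis), for shNCOR and shSMRT, with the list median as a black bar. Open points missed an adjusted p of 0.05. All 27 ISGF3 targets lie below 0 in shNCOR, with a median of -1.38, while the medians of the receptor, sensor and inhibitor lists lie between -0.09 and 0.24.

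In ATAC, 0 of the 48 peaks given to these genes were higher and 4 lower in shNCOR, where 8.58% of the 51469 tested peaks were called, 4.58% higher and 4% lower. In shSMRT 1 was higher and 8 lower, with 17.7% of all peaks called, 6.81% higher and 10.9% lower. Between the knockdowns 3 were higher and 6 lower in shSMRT, with 24.4% called, 6.93% higher and 17.5% lower. Calls of at least 0.5 numbered 3, 5 and 4 of the 48, against 6.41%, 11% and 12% of all peaks. Groups did not overlap at 9, 16 and 12 of the 48, and at 25.9%, 35.2% and 35.7% of all peaks. The median log2 fold change of the 48 was -0.10, -0.14 and -0.11. Against shGFP the shares of the 48 peaks called in either direction were therefore near those of all peaks. By direction, 8.33% were lower in shNCOR and 16.7% in shSMRT, against 4% and 10.9% of all peaks. Higher calls were 0% and 2.08%, against 4.58% and 6.81%. Between the knockdowns 6.25% were higher and 12.5% lower, against 6.93% and 17.5%. Of the 48, Irf8 had 16, Irf2 15, Irf1 5, Irf5 4, Stat3 3, Irf7 2 and Irf3, Irf9 and Stat2 1 each, and 17 lay within 10 kb of the start site. Values are reads per 10 M reads of a library, tested as log2(value + 5), and all 48 passed the filter of 10 in 3 libraries. The 1 peak higher in shSMRT passed it only with its shSMRT libraries. The median of all peaks was 0.05, -0.09 and -0.12 in the 3 comparisons, and the higher and lower calls depended on scaling: lower calls were 46.6%, 61.5% and 71.6% of all calls as deposited, but 63.8%, 38.1% and 33.5% when libraries were scaled to their sum over peaks. With that scaling the 48 peaks gave 0 higher and 6 lower in shNCOR, 1 and 6 in shSMRT and 6 and 1 for shSMRT against shNCOR. All 51469 peaks then gave 1458 higher and 2572 lower in shNCOR, 4544 and 2799 in shSMRT and 5121 and 2582 between the knockdowns. No direction is read from the comparison of the knockdowns.

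The Irf9 promoter peak, chr14:55603906-55604574, shares 246 bases with the window printed above. Among the peaks given to each gene and nearest a start site, the Irf9 peak alone was lower in both knockdowns. It had 228, 257 and 188 reads per 10 M in shNCOR, 201, 237 and 274 in shSMRT and 341, 279 and 302 in shGFP. All 6 knockdown libraries lay below all 3 shGFP libraries. The log2 fold change was -0.45 ± 0.11 in shNCOR (limma adjusted p = 0.00476), with -0.37 ± 0.11 for shSMRT (adjusted p = 0.0137). The difference shSMRT minus shNCOR was 0.08 ± 0.11 (95% interval -0.14 to 0.30, adjusted p = 0.644), and 0.33 (adjusted p = 0.0165) under quantile normalization. The shNCOR call ended without shGFP library 1 (adjusted p = 0.0618) or shNCOR library 3 (adjusted p = 0.0730). The shSMRT call ended without shGFP library 1 or shSMRT library 1 (adjusted p = 0.124 and 0.135) and under quantile or peak-sum scaling (adjusted p = 0.142 and 0.0673). Irf9 RNA was 2.27 times as high in shSMRT as in shNCOR.

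No peak lay on the printed Irf7 window. The 2 peaks given to Irf7 were in an exon, centred 1.29 kb past the start, and 2.55 kb before it, at the end of a neighbouring gene. The exon peak had 132, 99.0 and 115 reads per 10 M in shNCOR, 105, 107 and 132 in shSMRT and 140, 130 and 124 in shGFP. The groups overlapped, and the log2 fold changes were -0.19 ± 0.14 in shNCOR (95% interval -0.46 to 0.09, limma adjusted p = 0.446), with -0.20 ± 0.14 for shSMRT (adjusted p = 0.335). At the other peak they were -0.03 and -0.20 (adjusted p = 0.918 and 0.248). The largest RNA change of the 9 genes thus came without a called change in the accessibility of its own peaks, whose intervals still allow a moderate one.

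**Figure D4:**
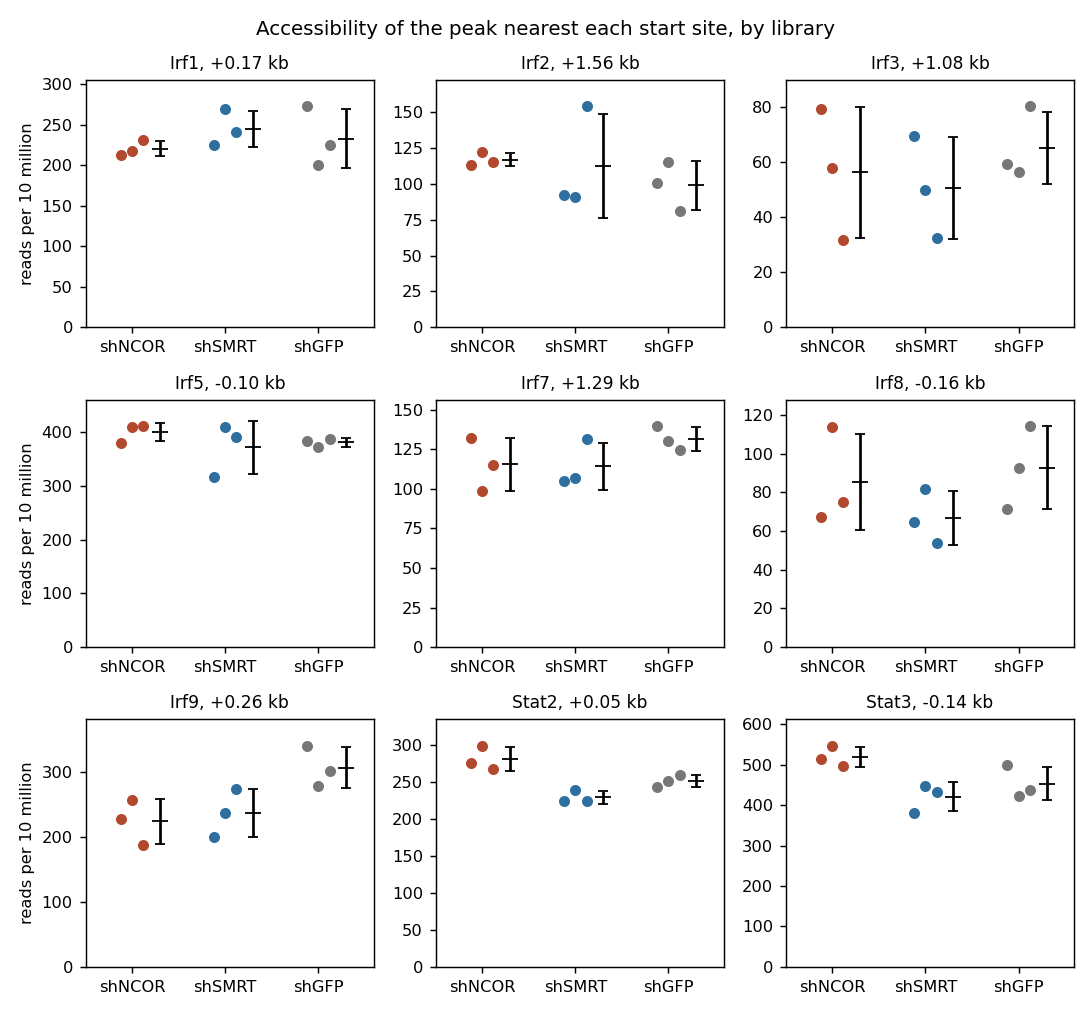
ATAC value (y axis, reads per 10 M, from 0), among the peaks given to each gene, of the one nearest a start site. Points are the 3 libraries of each hairpin, with mean and SD. Each title gives the distance of the peak centre from that start site. Peaks over the Irf2 and Irf3 starts are given to neighbouring genes and are not shown. For Irf9 all knockdown libraries lie below the shGFP libraries, between 188 and 274 against 279 to 341.

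For the other genes, the peak given to the gene and nearest a start site was not called against shGFP. Distances are from the nearest annotated transcript start, for some genes not that of the RNA transcript. Peaks over the Irf2 and Irf3 starts are given to neighbouring genes and are described under other observations. Log2 fold changes in shNCOR and shSMRT were -0.07 and 0.08 for Irf1, 0.24 and 0.14 for Irf2, -0.26 and -0.38 for Irf3, 0.07 and -0.04 for Irf5, -0.13 and -0.44 for Irf8, 0.16 and -0.13 for Stat2 and 0.20 and -0.11 for Stat3. The Irf8 value in shSMRT (adjusted p = 0.0883, limma) passed the threshold without shGFP library 1 or shSMRT library 2 (adjusted p = 0.0490 and 0.0444). The Irf8 promoter peak, chr8:120735975-120736430, which holds the printed window, had 67.3, 114 and 74.9 reads per 10 M in shNCOR, 64.8, 81.7 and 53.8 in shSMRT and 71.6, 92.8 and 114 in shGFP, with wide overlap. Between the knockdowns the Stat2 and Stat3 promoter peaks were lower in shSMRT by -0.29 and -0.30, but these calls ended in 6 and 4 of 18 alternatives. Both ended under quantile normalization, peak-sum scaling and voom and without shSMRT library 1. Quantile normalization gave log2 fold changes of -0.02 and 0.00 (limma adjusted p = 0.899 and 0.986) and also lifted Irf1 to 0.39 (adjusted p = 0.00322).

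Apart from the Irf9 promoter, the peaks called in both knockdowns lay at the 3′ end of Irf2. Of its 15 peaks, the 3 centred 105.5, 111.0 and 112.8 kb past the start were lower in both knockdowns. The first, chr8:46845054-46845413 in the last intron, had 79.2, 82.5 and 97.7 reads per 10 M in shNCOR, 111, 116 and 94.8 in shSMRT and 168, 166 and 159 in shGFP. The second, chr8:46850603-46850902 beyond the gene, had 67.3, 82.5 and 97.7 in shNCOR, 76.1, 62.4 and 70.7 in shSMRT and 163, 139 and 166 in shGFP. The third, chr8:46852307-46852780, had 106, 82.5 and 123 in shNCOR, 63.9, 73.7 and 73.6 in shSMRT and 159, 170 and 170 in shGFP. At each, every knockdown library lay below every shGFP library.

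In shNCOR these Irf2 peaks had log2 fold changes of -0.89 ± 0.14, -0.89 ± 0.15 and -0.67 ± 0.15 (limma adjusted p = 7.17e-06, 5.90e-05 and 0.00147). The shSMRT values were -0.60 ± 0.14, -1.11 ± 0.15 and -1.18 ± 0.15 (adjusted p = 0.00144, 5.02e-07 and 3.55e-08). All 6 values stayed called under each of 18 alternatives. Between the last pair lay a peak at 112.0 kb that did not share the fall, with 160, 160 and 171 reads per 10 M in shNCOR, 158, 170 and 151 in shSMRT and 154, 148 and 130 in shGFP (log2 fold change 0.18 and 0.15, adjusted p = 0.383 and 0.423). The third was lower in shSMRT than in shNCOR by -0.51 ± 0.15 (adjusted p = 0.00737), a call that ended under all 3 other scalings and without shNCOR library 3 (adjusted p 0.0505 to 0.0961). Irf2 RNA was not called in shNCOR and rose by 0.23 in shSMRT.

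**Figure D5:**
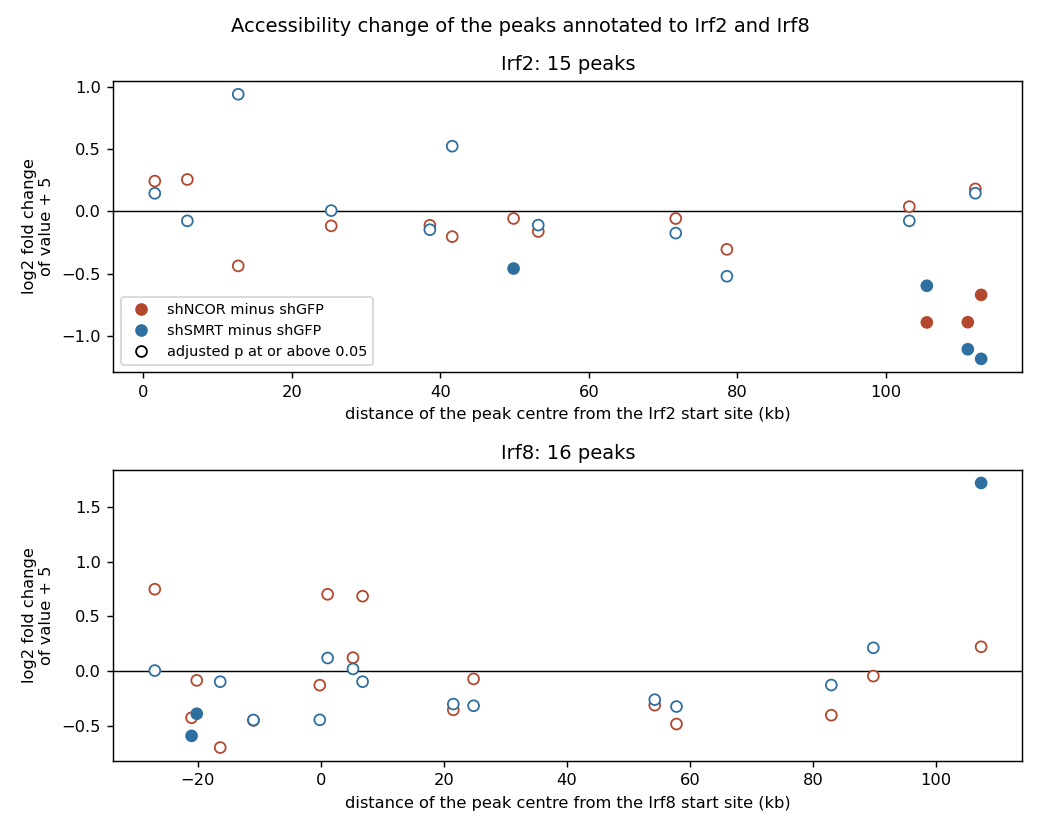
Log2 fold change of the ATAC value + 5 against shGFP (y axis) of the 15 Irf2 and 16 Irf8 peaks by distance of the peak centre from the start site (x axis, kb), for shNCOR and shSMRT. Open points missed an adjusted p of 0.05. The filled points at 105.5 to 112.8 kb of Irf2 lie between -1.18 and -0.60 in both knockdowns, and the filled Irf8 point at 107.3 kb, at 1.72, rests on few reads.

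The remaining calls against shGFP were in shSMRT, and 3 of them, under 0.5 in size, were chosen after their values were seen. Upstream of Irf8, the peak at -21.0 kb, chr8:120715138-120715606, had 102, 107 and 121 reads per 10 M in shNCOR, 115, 125 and 63.7 in shSMRT and 150, 157 and 140 in shGFP. All knockdown libraries lay below shGFP, the log2 fold change being -0.59 ± 0.16 in shSMRT (limma adjusted p = 0.00562) and -0.42 ± 0.16 in shNCOR (adjusted p = 0.0783). Without shSMRT library 3 the shSMRT value was -0.30 (adjusted p = 0.154), and the shNCOR value was then called (adjusted p = 0.0277), as it was with peak-sum scaling, voom or 6 libraries in the fit (adjusted p 0.0307 to 0.0448). Its neighbour at -20.1 kb had -0.39 in shSMRT (adjusted p = 0.00996), a call that ended under quantile normalization and without shGFP library 1 or shSMRT library 1 (adjusted p 0.0970 to 0.122). An intergenic peak 107.3 kb past the Irf8 start had 7.92, 0.00 and 16.5 reads per 10 M in shNCOR, 25.4, 36.3 and 19.8 in shSMRT and 4.47, 3.75 and 5.53 in shGFP. Its value was 1.72 ± 0.45 in shSMRT (limma adjusted p = 0.00503), from at most 32 reads in a library. It passed the filter only with its shSMRT libraries, so the filter favoured this call. With a filter at 20 it was not tested, and 0 of 46 peaks were higher in shSMRT, against 3430 of all 49499 peaks. A peak 24.6 kb past the Irf1 start, in an intron of another gene, had 413, 429 and 408 in shNCOR, 307, 330 and 311 in shSMRT and 424, 427 and 389 in shGFP, a change of -0.38 ± 0.09 in shSMRT (adjusted p = 0.00110) that stayed called under each of 18 alternatives. All shSMRT libraries lay below all others there. The Irf2 peak at 49.9 kb had -0.46 ± 0.13 in shSMRT (adjusted p = 0.0102), and this call ended under quantile or peak-sum scaling and without shGFP library 1 or shSMRT library 2 (adjusted p 0.0511 to 0.108). Irf5, Irf3, Irf7, Stat2 and Stat3 had no called peak against shGFP.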

How the data were processed

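Libraries were grouped by the hairpin in their titles. RNA values are RPKM as deposited by the authors, made, per the file headers, with HOMER from exon reads of either strand, on the mm10 RefSeq annotation and for 1 transcript of each gene. ATAC values (unit: other, a scaled count) are deposited by the authors as reads per peak scaled to 10 M reads, over a peak list merged across libraries and annotated with HOMER (mm10), per the file headers. No source used here states a transposase offset of the read ends. The submitters' processing notes also name Bowtie2, HISAT2, MACS2 and DESeq2, without roles. Decimal commas were read as points, and 1 peak with a cell that held no number was left out.

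For each assay 1 model was fitted with limma 3.58.1 (R 4.3.3) to its 9 libraries, using a trended prior, after filters of 1 RPKM or a value of 10 in 3 libraries and with pseudocounts of 1 and 5. Adjustment was by Benjamini-Hochberg over all features in each of 3 contrasts. The fit was also run on simulated reads with a fixed spread, which does not copy the unequal spread of these libraries. Depths were recovered from the step that 1 read makes in low values, as the depth that brought these closest to whole reads. Of the low values used, 100% came out whole within a tolerance of 0.1 read, which is no independent check. Pairs of libraries with the same hairpin differed beyond counting noise, at a chi-square of 1.64 to 9.65 per feature, and each library is 1 sample.

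The members, the gene lists and their tests were chosen with earlier results of these data known. Named were all 9 genes, their nearest peaks, other peaks called against shGFP with an absolute log2 fold change of at least 0.5, up to 2 genes at each end of a list per comparison against shGFP, and the 3 genes most like a member. Some genes the rule names are not reported here. Not analysed here are 54 samples of other assays, ChIP-seq and CUT&Tag.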

Additional observations from a re-analysis of the deposited data

How the results depend on the processing

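No called value changed sign. Over 18 alternatives per gene and comparison, 467 of 486 RNA values of the 9 genes kept their direction and side of the threshold and 19 lost a call, 0 of them in shNCOR against shGFP. Of 753 values of the 14 named peaks, 718 kept their side of the threshold, 24 lost a call and 11 gained one. Uncalled peak values did change sign, as at the nearest Irf1 peak in shNCOR (log2 fold change -0.17 to 0.05). Limits to peaks within 10 kb of a start site left 1, 1 and 2 called of 4, 9 and 9 in shNCOR, in shSMRT and between them. All peaks called for shSMRT against shNCOR numbered 12564, and 5951, 7703 and 7135 with quantile normalization, scaling to the sum over peaks and voom on recovered reads, where the 48 peaks gave 4 calls with voom. Leaving out 1 library gave 2544 to 4588 called peaks in shNCOR (4414 in all, lowest without shGFP library 2, and 2840 and 2738 without shGFP libraries 1 and 3), 5119 to 10180 in shSMRT (9101, lowest without shGFP library 1) and 5 to 9 of the 48 peaks between the knockdowns (lowest without shSMRT library 1). Whether library numbers pair the samples was not settled. Deviations of same-numbered libraries correlated at only -0.06 to 0.10 in RNA. The own number was closest in 6 of 9 RNA comparisons, among them that of each shSMRT library with shGFP. In ATAC the correlations were -0.04 to 0.02, and the own number was closest in 2 of 9. With the replicate block 7, 7 and 9 of the 9 genes and 4, 9 and 9 of the 48 peaks were called, the counts without it. An edgeR fit was not run, because the deposited values are scaled. At 6.06 to 10.84 M reads per ATAC library, an uncalled peak may still differ by the width of its interval, and causes were not tested.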

Other observations

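Peaks over the promoters of Irf2 and Irf3 are annotated to the genes that start beside them and so were not among the 48. The peak over the Irf2 window, given to Gm16675, had 150, 195 and 188 reads per 10 M in shNCOR, 154, 154 and 143 in shSMRT and 201, 161 and 179 in shGFP. All shSMRT libraries lay below all shGFP libraries, with a log2 fold change of -0.25 ± 0.12 (limma adjusted p = 0.137), although Irf2 RNA rose by 0.23 there. The peak over the Irf3 window, given to Bcl2l12, had 187, 193 and 175 in shNCOR, 138, 150 and 199 in shSMRT and 159, 165 and 153 in shGFP, and log2 fold changes of 0.21 ± 0.12 in shNCOR (adjusted p = 0.295) and 0.01 ± 0.12 in shSMRT (adjusted p = 0.956).

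Within Irf2 the weak intron peaks at 12.8 and 41.6 kb were higher in shSMRT than in shNCOR, by 1.38 ± 0.38 and 0.73 ± 0.25 (limma adjusted p = 0.00525 and 0.0293). Without shNCOR library 2 both calls ended, at 0.73 and 0.52 (adjusted p = 0.114 and 0.152), and that at 41.6 kb also ended without shSMRT library 1 or 2 (adjusted p = 0.0711 and 0.155) and under quantile normalization (adjusted p = 0.0571). Against shGFP neither was called, but in shSMRT the peak at 12.8 kb was called in 4 of 18 alternatives and that at 41.6 kb in 1. The first had 18.5, 1.65 and 22.8 reads per 10 M in shNCOR against 43.2, 32.9 and 36.8 in shSMRT, with 22.4, 15.0 and 14.8 in shGFP. They were chosen after their values were seen.

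Of 8 tested genes among the remaining family members and IRF2-binding proteins, 3 rose and 1 fell in shNCOR and 4 rose and 2 fell in shSMRT. The shares of all genes called there were 37.6% and 55.8%. Irf2bp2, an IRF2 corepressor gene, averaged 21.3 ± 0.69 RPKM in shNCOR, 20.9 ± 0.33 in shSMRT and 16.9 ± 0.39 in shGFP (SD, n = 3 each), up by 0.32 and 0.29 (limma adjusted p = 3.54e-05 and 3.83e-05). Irf2bpl rose by 0.13 in shNCOR and fell by 0.19 in shSMRT.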
